A study of Mus musculus with 38 samples.

Results

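MHC class II presentation genes are the genes of the complex that displays peptides to CD4+ T cells, together with the proteins that load it and the factor that switches it on. The members taken here were 8 genes, H2-Aa, H2-Ab1, H2-Eb1, H2-DMa, H2-DMb1, H2-Oa, Cd74 and Ciita, found by the transcript accession of their probes among 20018 genes with a symbol. They were measured by 9 of the 55681 probes on the array, since H2-Ab1 had 2. Each gene is described by its brightest probe over all arrays.

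A class II molecule is a pair of an alpha and a beta chain that binds peptides cut in endosomes. The invariant chain, encoded by Cd74, fills the groove of a newly made molecule, H2-DM exchanges the remnant for a peptide, and H2-O holds H2-DM back. Ciita, the class II transactivator, turns the genes on in dendritic cells, B cells and macrophages, and in other cells after interferon gamma. In bulk tissue, fewer cells of a type and less RNA per cell cannot be told apart.

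All animals were male MutaMouse, a mouse line carrying a lacZ reporter, aged about 10 weeks and gavaged daily for 28 days, with tissues taken 72 h after the last dose. D0 received olive oil alone, and D1, D2 and D3 received 6.25, 12.5 and 25 mg of dibenz(ah)anthracene, a polycyclic aromatic hydrocarbon, per kg of body weight and day. RNA came from a random slice of lung (right lobe; 5, 5, 4 and 5 mice at D0 to D3) and of forestomach (5, 5, 4 and 4 mice). Each array set tissue RNA in Cy5 against 1 universal mouse reference RNA, a pool of 11 mouse cell lines, in Cy3, and values are loess-normalized log2 ratios of tissue over reference. A gene was called at a Benjamini-Hochberg adjusted p (limma, over all probes) of at most 0.05 together with a fold change of at least 1.5.

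Forestomach arrays fell into 2 sets by the mean log2 ratio of 10 glandular stomach genes relative to D0. In 6 arrays this score lay between -3.54 and -2.99, and in 13 between 0.88 and 2.86. The arrays labelled mouse 18, which were averaged, fell on both sides, at -2.99 and 2.44. The arrays lay on 5 slides scanned on 3 days, each slide holding both tissues and several dose groups.

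Promoter windows of RefSeq (GRCm38.p6, 250 bases before to 50 after the gene start) were found for 5 of the 8 genes and were searched on both strands for the X box (in a form with some open positions) and the Y box GATTGG, elements through which class II genes are switched on. They are shown because H2-Eb1 and H2-DMb1 carried both letter strings with nearly the same spacing. In capitals are the X and Y box matches, and the 61 bases run 5′ to 3′ on the gene's strand.
H2-Eb1 (chr17:34305762-34305822, +): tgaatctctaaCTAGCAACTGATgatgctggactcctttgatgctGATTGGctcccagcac
H2-DMb1 (chr17:34153084-34153144, +): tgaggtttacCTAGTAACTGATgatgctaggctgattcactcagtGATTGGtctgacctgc
H2-Aa (chr17:34287857-34287917, -): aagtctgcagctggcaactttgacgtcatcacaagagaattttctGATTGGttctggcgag
H2-Oa (chr17:34092290-34092350, +): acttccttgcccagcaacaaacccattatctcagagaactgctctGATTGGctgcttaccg
The Y box on the gene's strand began 60, 62, 49 and 44 bases before the start in these 4 genes. The X box began 94 bases before the start in H2-Eb1 and 97 in H2-DMb1, with 22 and 23 bases between X and Y box. Of 32851 windows, 0.177% held this X box, 16.1% the Y box and 0.0183% both, a count of 6 windows that includes these 2. H2-DMa had 2 windows, 1 without either string and 1 with a Y box 199 bases before the start. The X box form searched was CTAG, 2 open positions, AC, 1 open position and GAT. The shares hold for this form only, and other forms of the X box were not searched. The lack of a match in H2-Aa, H2-Oa and H2-DMa therefore does not show that their promoters have no X box. All matches given here are matches of letters in the reference strain, not measured sites.

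In vehicle-treated mice the class II genes were higher in lung than in forestomach. At D0, 7 of the 8 genes were called higher in lung and none lower, against 8.62% of all probes called higher in lung. The median of the 8 log2 differences was 1.71, beside -0.01 over all probes. H2-Eb1 was the gene not called. The calls of H2-Oa and Ciita include forestomach signals at background: their Cy5 was well above it on 0 of 5 D0 forestomach arrays.

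The classical chains behaved unequally on the ratio scale. H2-Aa, the alpha chain of the I-A molecule, read 5.37, 4.99, 4.44, 4.57 and 5.11 in the lungs of D0 mice 1 to 5 and 3.07, 2.14, 0.93, 1.17 and 2.38 in their forestomachs. Every lung value lay above every forestomach value, as for 6 of the 8 genes, where 18.8% of all probes had groups that did not overlap in either direction. Mice 3 and 4 were lowest in both tissues. They lay on slides 4 and 3, which averaged lowest over all doses (4.64 and 4.71 in lung, 1.38 and 1.31 in forestomach). Mouse and slide thus cannot be told apart here. The log2 difference was 2.96 ± 0.40 (SE, n = 5 and 5; adjusted p = 3.14e-07 by limma), a 7.76-fold higher ratio in lung, but it was 0.94 (adjusted p = 0.224), and not called, in the ratios that the scanner software Feature Extraction computed. The reference gave H2-Aa little signal: Cy3 was well above background on 18 of 19 lung arrays and on 1 of 19 forestomach arrays.

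H2-Ab1, the partner beta chain of I-A, read 4.30, 4.01, 4.33, 4.28 and 4.28 in lung of the same mice and 3.87, 3.17, 3.39, 3.71 and 3.58 in forestomach. The groups did not overlap, and the log2 difference was 0.69 ± 0.13 (SE; adjusted p = 5.72e-05 by limma), 1.62-fold. Its second probe gave 0.59 ± 0.15 (adjusted p = 0.00177). Both values lie close to the fold threshold, and the call was lost with median centring (0.85, adjusted p = 0.184), with the scanner software's own ratio (0.28, adjusted p = 0.21) and with the authors' deposited values (0.57, adjusted p = 0.000907). It was also lost with the 3 D0 forestomach arrays of high glandular score (0.58).

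H2-Eb1, the beta chain of the I-E molecule, read 3.16, 2.90, 3.13, 3.65 and 3.08 in D0 lung and 3.45, 2.25, 2.73, 3.29 and 2.57 in D0 forestomach. The groups overlapped, with forestomach of mice 1 and 4 inside the lung range. The log2 difference was 0.32 (95% interval -0.02 to 0.67; adjusted p = 0.169 by limma), so the ratio did not settle a difference for this chain.

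Cd74, the invariant chain, read 3.62, 2.91, 3.02, 2.70 and 3.20 in D0 lung and 0.52, -0.10, -0.05, 0.14 and 0.12 in D0 forestomach. The groups lay far apart, with a log2 difference of 2.96 ± 0.16 (SE; adjusted p = 7.49e-17 by limma), 7.80-fold. Among the loading proteins, the H2-DM beta chain H2-DMb1 read between 3.16 and 3.47 in D0 lung and between 0.45 and 0.62 in D0 forestomach. Its difference was 2.75 ± 0.14 (adjusted p = 5.92e-17), 6.72-fold. The H2-DM alpha chain H2-DMa read between 0.96 and 1.77 in D0 lung and between -0.66 and -0.33 in D0 forestomach, with a difference of 1.87 ± 0.15 (adjusted p = 3.03e-12), 3.64-fold. The groups of neither H2-DM chain overlapped.

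H2-Oa, the alpha chain of the H2-DM inhibitor, was well above background in Cy5 on all 19 lung arrays and on 0 of 19 forestomach arrays. Ciita was well above background on 18 lung arrays and 1 forestomach array. For these genes D0 forestomach gives only a bound, which is open to dye bias without a dye swap. From quantile-normalized Cy5 intensities, H2-Oa was at least 2.21-fold higher in D0 lung (adjusted p = 8.12e-10 by limma on the ratio) and Ciita at least 1.35-fold higher (adjusted p = 0.000295). The bounds depended on the scaling, and were 2.84 and 1.60 when Cy5 was taken after loess with the mean intensities normalized between arrays. Ciita ratios in D0 lung ran from 0.33 to 1.66 and those in D0 forestomach from -0.31 to 0.38, so the ranges touched.

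**Figure D1:**
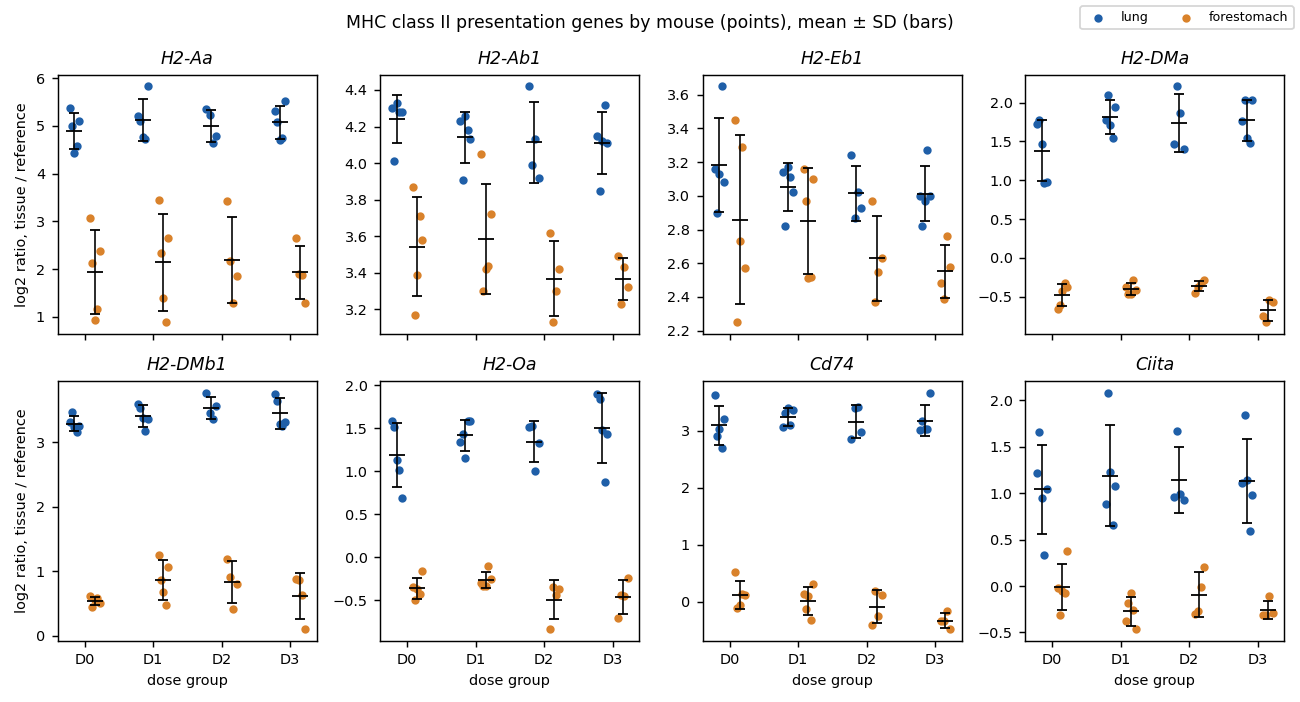
Log2 ratio of tissue over reference (y axis) of each gene by dose group (x axis), lung in blue and forestomach in orange, with 1 point a mouse and bars for mean ± SD. Lung lies above forestomach throughout for H2-Aa, H2-DMa, H2-DMb1, H2-Oa and Cd74, the tissues overlap in part for the other genes, and D1 to D3 overlap D0 of their tissue, except for Cd74 in forestomach at D3.

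The reference channel itself differed between the tissues, most for H2-Ab1 and H2-Eb1. Their median Cy3 was 6.2-fold and 5.82-fold higher on lung arrays, beside 1.6-fold for the dim H2-Aa and 1.48-fold for H2-DMb1. The Cy3 spot intensity of H2-Ab1, which reads the reference RNA, ran from 1744 to 5102 (median 3643) on lung arrays and from 411 to 906 (median 588) on forestomach arrays. That of H2-Eb1 ran from 1712 to 5611 (median 4046) on lung arrays and from 406 to 1183 (median 695) on forestomach arrays. No lung array of either gene reached down to the forestomach range, although the reference is labelled as 1 product on all arrays. For Cd74, whose Cy5 signal was also far higher in lung, the Cy3 medians were 3531 and 2742.

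Fitted alone after quantile normalization, Cy3 was higher on D0 lung arrays by 2.28 ± 0.16 (SE, log2) for H2-Ab1 and by 2.34 ± 0.20 for H2-Eb1 (adjusted p = 1.92e-12 and 3.23e-10 by limma). Only these 2 of the 8 genes were called higher in Cy3, where 0.467% of all probes were. Of the 260 probes called higher in Cy3, 240 were also called higher in lung in Cy5, and these were 5.44% of the 4413 probes called higher in Cy5. The other members differed by between -0.20 and 0.58 in Cy3, under the fold threshold, with H2-Aa at 0.58 (95% interval 0.38 to 0.77; adjusted p = 0.000163 by limma) and H2-DMb1 at 0.48 (0.30 to 0.66; adjusted p = 0.000966). Why the reference signal differed was not tested.

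With Cy5 alone, the tissue channel, all 8 genes were called higher in D0 lung, where 7.93% of all probes were. H2-Ab1 was then higher by 2.85 ± 0.14 (SE, log2; adjusted p = 3.77e-17 by limma), 7.21-fold, and H2-Eb1 by 2.52 ± 0.15 (adjusted p = 5.25e-15), 5.74-fold. H2-Aa gave 2.38, H2-DMb1 2.87, Cd74 3.20 and H2-DMa 1.72, while H2-Oa and Ciita have only the bounds above. For Ciita the bound from quantile-normalized Cy5, 1.35-fold, lies under the fold threshold, so its call here rests on forestomach signal at background. The ratio thus gave a smaller tissue difference for H2-Ab1 and H2-Eb1 than the tissue channel did, a larger one for H2-Aa (2.96 against 2.38), and values of 1.87, 2.75 and 2.96 against 1.72, 2.87 and 3.20 for H2-DMa, H2-DMb1 and Cd74. This fit was added after the reference signal was seen, and a single channel carries the array-to-array differences that a reference is used to remove.

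**Figure D2:**
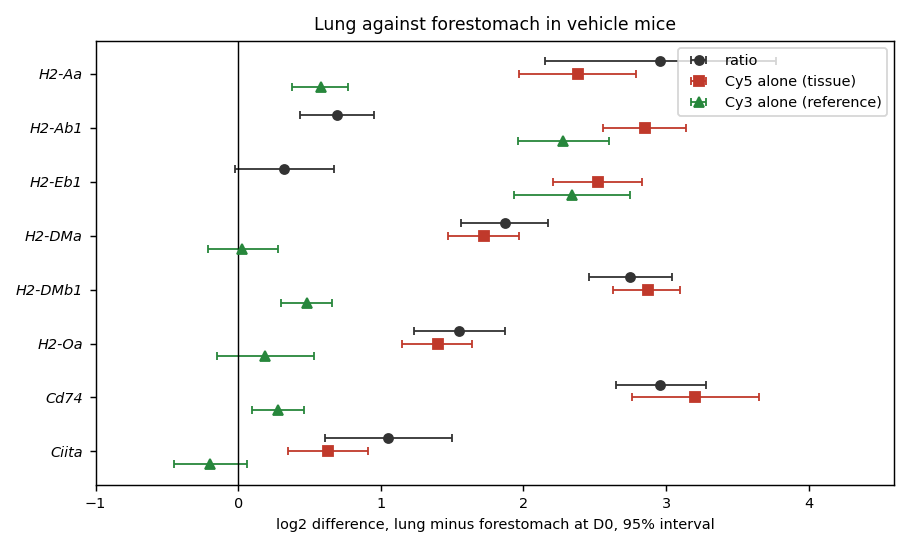
Log2 difference of lung minus forestomach at D0 (x axis) with its 95% interval for each gene (y axis), from the ratio (black circles), Cy5 alone (red squares) and Cy3 alone (green triangles). The Cy3 differences of H2-Ab1 (2.28) and H2-Eb1 (2.34) stand apart from those of the other genes, and their ratios are 0.69 and 0.32. H2-Oa and Ciita were at or near background in forestomach Cy5.

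**Figure D3:**
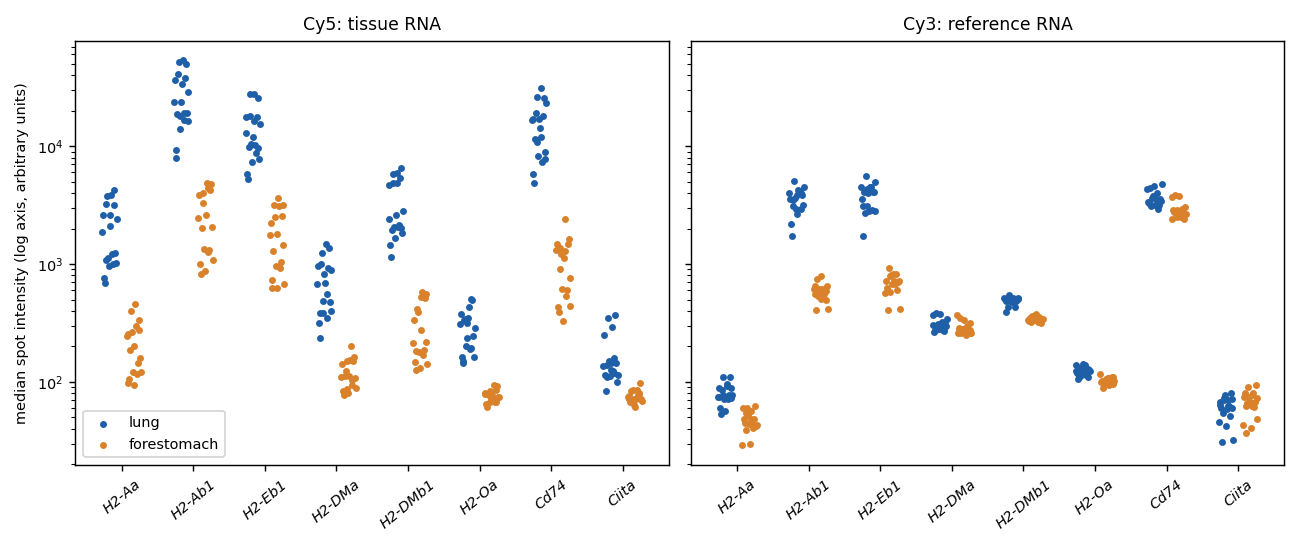
Median spot intensity on a log axis (y axis, arbitrary units) of each gene (x axis) in Cy5 and in Cy3, with 1 point a mouse and lung in blue, forestomach in orange. In Cy3 only H2-Ab1 and H2-Eb1 show 2 clouds that are several-fold apart.

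Other genes of presentation were described from fixed lists. Among 17 further class II genes, 3 were called higher in D0 lung and 1 lower (median log2 difference 0.11). Higher were Ctss, cathepsin S, which degrades the invariant chain (3.27 ± 0.20), H2-Ob, the partner of H2-Oa (1.62 ± 0.24), and Lgmn, an endosomal protease (1.44 ± 0.13). Lower was Ifi30, a thiol reductase of endosomes (-1.14 ± 0.27). Of 7 costimulation genes 5 were called higher, of 14 class I genes 9, and of 12 genes of interferon gamma signalling 5, with none lower. Over all probes, 8.62% were called higher.

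Many markers of cell types also differed between the tissues at D0, and others were not called. Called higher in D0 lung were 7 of 11 B lymphocyte genes, 4 of 9 dendritic cell genes, 8 of 8 macrophage genes, 4 of 7 T cell genes and 7 of 7 type 2 alveolar cell genes. Called lower were 7 of 10 glandular stomach and 7 of 8 squamous epithelium genes. Over all probes, 8.62% were called higher in D0 lung and 4233 of 55681 lower. Surfactant genes marked the lung samples and squamous keratins the forestomach samples. The part of these cell types in the class II difference was not tested.

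In lung, dibenz(ah)anthracene changed none of the 8 genes past the test. The calls were 0 of 8 at D1, D2 and D3, where 0.14%, 0.264% and 0.639% of all probes were called. At an unadjusted p under 0.05 there was 1 of 8 at each dose, where 6.53%, 8.07% and 11.3% of all probes were. The median of the 8 log2 differences at D3 was 0.12, beside 0 over all probes, and 6 of 8 were above 0. With median centring in place of loess the median was 0.42, beside 0.04 over all probes, and all 8 were above 0. No group at D3 was free of overlap with D0 for any of the 8 genes, where 3.1% of all probes had groups that did not overlap.

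H2-DMa had the smallest adjusted p of the 8 at D1 and D3. At D2 that was H2-DMb1, with a log2 difference of 0.25 (95% interval 0.01 to 0.49; adjusted p = 0.604 by limma). H2-DMa read 1.73, 1.77, 1.47, 0.96 and 0.98 in lung at D0, 1.78, 2.10, 1.71, 1.54 and 1.95 at D1, 1.47, 2.21, 1.87 and 1.40 at D2, and 1.76, 2.03, 1.55, 1.48 and 2.04 at D3. D0 mice 4 and 5 lay below all dosed mice, and the other 3 D0 mice lay within the dosed range. The log2 differences from D0 were 0.43, 0.36 and 0.39 at D1, D2 and D3 (95% intervals 0.06 to 0.80, -0.04 to 0.75 and 0.02 to 0.76; adjusted p = 0.707, 0.671 and 0.412 by limma). On the slides that also held a D0 mouse, H2-DMa was higher than that slide's D0 mean on 4 of 4, 3 of 3 and 4 of 4 slides at D1, D2 and D3. H2-Aa had the same counts, Cd74 3, 3 and 4, H2-DMb1 4, 2 and 4, Ciita 3, 3 and 3, and H2-Oa 3, 2 and 3. H2-Ab1 went the other way, higher on 0, 0 and 1 of these slides, as did H2-Eb1, on 1, 0 and 0. The share over all probes is not given here. With slide as a block the adjusted p values of H2-DMa were 0.0967, 0.182 and 0.0568, still short of the threshold.

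Differences of the classical chains and Cd74 in lung were smaller. At D3, H2-Aa differed by 0.18 (95% interval -0.27 to 0.62), H2-Ab1 by -0.13 (-0.34 to 0.09), H2-Eb1 by -0.17 (-0.42 to 0.07) and Cd74 by 0.09 (-0.24 to 0.42). The intervals of H2-Ab1, H2-Eb1, Cd74 and H2-DMb1 (-0.07 to 0.38) lie within a 1.5-fold change in either direction, while those of H2-Aa, H2-DMa, H2-Oa (-0.06 to 0.69) and Ciita (-0.45 to 0.63) reach past it. With median centring H2-Ab1 and H2-Eb1 turned to 0.33 and 0.31, Cd74 was 0.59 and H2-DMb1 0.56, and the intervals of all 8 genes reached past a 1.5-fold change.

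Forestomach also had 0 of 8 genes called at D1, D2 and D3, where 0%, 0% and 0% of all probes were called. The number of the 8 at an unadjusted p under 0.05 was 0, 0 and 2, beside 4.32%, 3.1% and 3.56% of all probes. Cd74 read 0.52, -0.10, -0.05, 0.14 and 0.12 at D0 and -0.34, -0.34, -0.16 and -0.47 at D3, where mouse 18 is the mean of its arrays (-0.03 and -0.30). All D3 values lay below all D0 values, while groups did not overlap in either direction for 1.13% of all probes. This rests on averaging mouse 18, whose first array alone lies above D0 mice 2 and 3. The log2 difference was -0.45 ± 0.15 (SE; 95% interval -0.77 to -0.14; adjusted p = 1 by limma). Blocking on slide gave -0.30, and median centring in place of loess turned it to 0.36.

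H2-DMa differed by -0.19 at D3 (95% interval -0.37 to -0.02; adjusted p = 1 by limma), an interval that leaves out 0, and by 0.29 (-0.26 to 0.84) with median centring, with Cy5 well above background on 15 of 19 forestomach arrays. H2-Aa differed by -0.01 at D3 with the interval -1.14 to 1.12, so its values do not exclude a change of either sign within these bounds. The score of glandular stomach genes averaged 0, -0.39, 0.51 and 1.14 at D0 to D3, and its part in these differences was not tested beyond the fit with the score as a covariate, which also called 0 of 8.

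**Figure D4:**
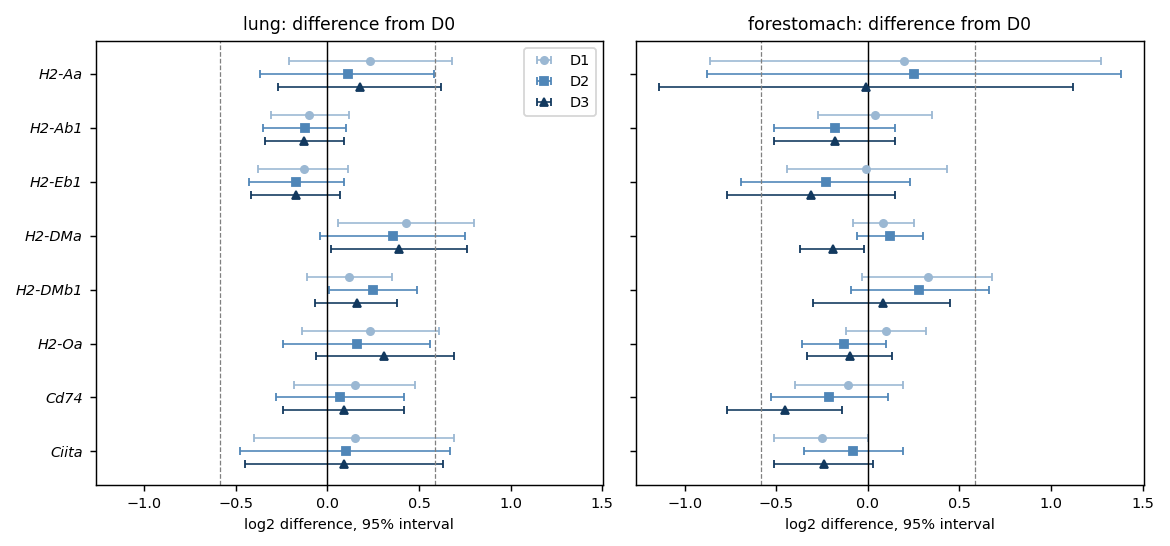
Log2 difference from D0 (x axis) with its 95% interval for each gene (y axis) at D1, D2 and D3, in lung and forestomach, with dashed lines at a 1.5-fold change. All intervals that leave 0 aside belong to values whose adjusted p was above the threshold.

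The responses of the tissues did not differ past the test for any of the genes. The dose difference in lung minus that in forestomach called 0 of 8 at D1, D2 and D3, where 0.0323%, 0.0611% and 0.172% of all probes were called. At an unadjusted p under 0.05 there were 0, 0 and 2 of 8, beside 4.54%, 3.68% and 5% of all probes. The largest at D3 were H2-DMa (0.58, 95% interval 0.14 to 1.02; adjusted p = 0.679 by limma) and Cd74 (0.54, 0.08 to 1.01; adjusted p = 0.869). These differences share the control mice of the single-tissue comparisons. None of the further gene lists had a gene called in any dose comparison of either tissue.

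For most of the genes, values differed more by slide than by dose. Slide accounted for 0.83 of the variance (R2) of H2-Aa in lung and dose group for 0.0635. For Ciita in lung the shares were 0.879 and 0.0165, and for H2-Aa in forestomach 0.843 and 0.022. H2-Aa in lung averaged 5.29 and 5.10 on slides 1 and 2, 4.71 and 4.64 on slides 3 and 4, and 5.46 on slide 5, and slides 3 and 4 were scanned on the same day. In lung the share of slide was above that of dose group for all 8 genes, and in forestomach for all but H2-DMa. There are more slides than dose groups, which raises R2 by itself, and the share over all probes is not given. Some gaps were small, as for H2-Oa in lung (0.309 and 0.148) and Ciita in forestomach (0.305 and 0.288).

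**Figure D5:**
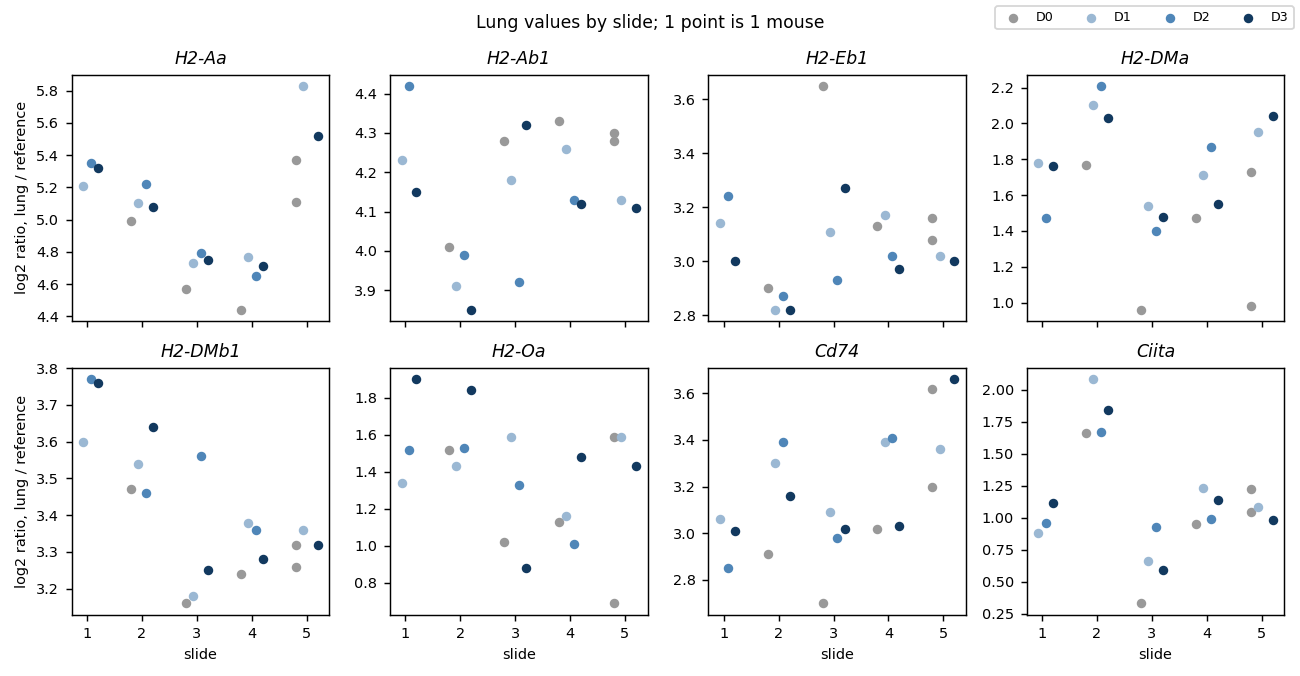
Log2 ratio of lung over reference (y axis) of each gene by slide (x axis), with 1 point a mouse, D0 in grey and D1 to D3 in light to dark blue. Points of different dose sit together within a slide for H2-Aa and Ciita, with slides 3 and 4 low for H2-Aa.

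On the ratio scale the members did not vary as 1 block between mice. As a description, with points that share slides, Pearson's r of the deviations from dose group means was 0.74 between H2-Ab1 and H2-Eb1 over 19 lung mice and 0.79 over 18 forestomach mice. H2-Eb1 and Ciita had r = -0.82 in lung. Over the 28 pairs of genes, the median r was 0.14 in lung and 0.18 in forestomach, with 15 and 17 pairs above 0. With Cy5 alone the median was 0.26 and 0.44, with 20 and 25 pairs above 0. The r of H2-Eb1 and Ciita in lung was then 0.49.

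By the same measure, the genes outside the class II set most like the mean of H2-Aa, H2-Ab1 and H2-Eb1 in lung were Sox18 (r = 0.89), Kmo (0.88), Septin4 (0.87), Cracr2b (0.86) and Vwf (0.86), among 11653 genes well above background. In forestomach they were Ckb (0.95), Tmem45b (0.91), Degs2 (0.90), Proser2 (0.87) and Prss8 (0.87), among 9314 genes. On the ratio scale H2-Aa did not vary with the other chains of this mean in lung. Its r was -0.04 with H2-Ab1 and -0.25 with H2-Eb1, and with Cy5 alone 0.56 and 0.39. Slide was not removed from these values, and its part in the likeness was not tested.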

How the data were processed

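The deposited scanner files hold median spot intensities on a linear scale, which the authors obtained from Agilent Feature Extraction 10.7.3.1 and which carry no background subtraction or normalization. The deposited files also hold the software's log10 ratio of Cy5 over Cy3, and the authors deposited log2 values of every probe, both used as alternatives. These values state no scale: against the ratios computed here their columns had slopes of 0.99 to 0.998, while how they were centred is not given in the sources used here.

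Intensities were normalized by loess within each array without background correction, after the study's methods. Control spots and outlier flags were left out, spots of 1 probe averaged, and log2(Cy5/Cy3) was tested with limma 3.58.1 in R 4.3.3, per tissue for dose and over both tissues for tissue and difference of responses. limma took the place of MAANOVA. No array was dye-swapped, and the number of arrays limits the precision. Symbols came from RefSeq transcript accessions of GRCm38.p6 (26413 probes). The files use mm9, so only promoter windows carry coordinates. Lung and forestomach carrying 1 mouse number come from 1 animal, as the labels give it. Over 18 such mice the deviations of both tissues correlated with r from 0.08 to 0.25, over 0.1 in 16. Both tissues of a mouse lay on the same slide, apart from the second array of mouse 18. This correlation therefore cannot tell a shared animal from a shared slide. In fits with slide as a block, averaged mouse 18 took the slide of its first array. The script was tested on simulated data.

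Alternatives were normexp (offset 50), median centring, the other deposited values, a filter on dim probes, slide, scan day and mouse as blocks, leaving out each mouse, D0 with 1 dose alone, other uses of mouse 18, and the glandular score as covariate. Added after seeing the data were Cy5 alone (also for the bounds of H2-Oa and Ciita), Cy3 alone and high-score forestomach arrays alone. All 8 members and all their probes are named. From the other lists, genes called in lung at D3 were to be named, of which there were none, and those named for the tissue difference were chosen after their values were seen. Members and lists were chosen with earlier results of these data known. Of 116 list genes outside the members, 110 had a probe.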

Additional observations from a re-analysis of the deposited data

Results flagged for a closer look

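Among 64 groups of 4 or 5 mice, 4 had a mouse farther from the others than Dixon's 95% limit, where chance flags about 1 in 20 groups. H2-Ab1 in lung at D0 was lowest in mouse 2, at 4.01 against 4.28 for the nearest mouse. Cd74 in lung at D3 was highest in mouse 20, at 3.66 against 3.16. Ciita in lung at D2 was highest in mouse 12, at 1.67 against 0.99, and mouse 12 lay on slide 2, where Ciita was high in every dose group. Ciita in forestomach at D3 was highest in mouse 18, at -0.11 against -0.29, the mean of arrays at -0.30 and 0.08 that were not well above background in Cy5.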

How the results depend on the processing

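The 0 calls among the genes tested in each of the 9 dose comparisons and differences of responses were the same under every alternative run. These alternatives included leaving out each mouse. In forestomach dose comparisons the filter on dim probes tested only 6 of the 8 genes, without H2-Oa and Ciita. For the tissue difference at D0 the count was 7 and ranged from 5 to 8, with 5 under the Feature Extraction log ratio, 6 under median centring, the authors' values and the high-score forestomach arrays, and 8 with Cy5 alone; it was 7 without each mouse in turn. Mouse as a fixed or random replicate block also left 7 calls, and 0 for each difference of responses, and pairing changed no call. Over single genes, 4 of 1618 planned values lost their call, all in the tissue difference, and 1 of 192 added values lost and 2 gained it; 95 and 34 values with no call in either fit changed sign. The number of probes called in lung at D3 was 356, and it was 16 under median centring and 533 under the Feature Extraction log ratio; for the difference of responses at D3 it was 96, and 2 under median centring and 204 with slide as a block. Over all alternatives it ran from 0 to 160 in lung at D1 (78), from 5 to 242 at D2 (147), from 0 to 50 and from 2 to 78 for the differences of responses at D1 (18) and D2 (34), from 0 to 3 in forestomach at D3 (0) and from 4553 to 13284 for the tissue difference (9034). The cause was not tested. Dim signals limit H2-Oa and Ciita in forestomach, and H2-Aa in the reference.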
